A study of Mus musculus with 12 samples.

Results

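Semaphorins, plexins, neuropilins, ephrins, Eph receptors, Slits, Robo receptors, netrins and Unc5 receptors were followed in transfected mouse melanoma cells. The genes were taken by their array symbol, which had to start with Sema and a digit, Plxn, Efna, Efnb, Epha, Ephb, Slit with 1 to 3, Robo with 1 to 4, Ntn and a digit, or Unc5, or to be Nrp1 or Nrp2. This gave 70 of the 18193 genes on the array, and 40 of the 70 were bright enough to be tested. The spelling rule also caught 3 genes that belong to none of these families: Unc50 and Unc5cl, which are not Unc5 receptors, and Plxna4os1, an antisense gene of Plxna4. Without them there were 67 guidance genes, of which 39 were tested.

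Guidance cues are secreted or membrane-bound proteins that attract or repel growing axons and migrating cells, neural crest cells and melanoblasts among them. Semaphorins bind plexins, with neuropilins as partners for most class 3 semaphorins. Ephrins, held in the membrane by a lipid anchor (class A) or a transmembrane segment (class B), bind Eph receptor tyrosine kinases and can signal in both directions. Slits repel through Robo receptors, and netrins repel through Unc5 receptors, which also act as dependence receptors that can trigger cell death when no netrin is bound.

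All cells were B16-F10, an established line of pigmented mouse melanoma, transiently transfected with the plasmid pMES, in which a chick beta-actin promoter drives the insert and EGFP follows on the same transcript through an IRES. The first group received pMES with chicken FoxD3-VP16, whose repressing C-terminal end was swapped for a VP16 activation domain, the second received pMES with chicken FoxD3, a forkhead transcription factor of the neural crest, and the third received empty pMES. Every group has 4 single-colour arrays of RNA from EGFP-positive cells sorted 24 h after transfection, numbered 1 to 4. The comparisons ask which guidance genes differ after FoxD3, and whether the exchange of its repressing end for an activating one alters that difference.

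Levels are quantile-normalized log2(intensity + 16) values, given here as log2 levels, and differences between groups are on the same scale, where the change of a dim gene comes out too small. A gene was tested when its mean level over the 12 arrays was above a brightness limit of 5.98, and it is said to have risen or fallen when limma's Benjamini-Hochberg adjusted p over all 10916 tested genes was under 0.05. Levels of different genes come from different probe sets and do not rank their transcripts. All 7 melanocyte markers (Tyr, Tyrp1, Dct, Pmel, Mlana, Mitf and Sox10) had mean levels of 12.7 to 15.4. Their mean was 14.09 to 14.23 on FoxD3-VP16 arrays, 13.93 to 14.15 on FoxD3 arrays and 14.30 to 14.44 on empty vector arrays, which lay above all others. Single markers went different ways. Between empty vector and FoxD3, Sox10 went up from 12.67 to 13.39, while all other markers went down, Mitf from 13.40 to 12.32. With FoxD3-VP16, Sox10 was at 11.95 and Mitf at 12.98. Only Tyr and Mlana had higher means there than with empty vector. None of 4 keratinocyte, 1 of 6 endothelial and 1 of 5 leukocyte markers was above the limit. Above it were also 2 of 7 neuron markers, Tubb3 at 9.45 and Syt1 at 6.06, and 2 of 4 Schwann cell markers, Mbp at 10.98 and S100b at 10.64. The neuron list averaged 5.59 to 5.95 on FoxD3-VP16 arrays, 5.54 to 6.32 on FoxD3 arrays and 5.47 to 5.95 on empty vector arrays, and the Schwann cell list 8.30 to 8.59, 7.75 to 8.37 and 8.13 to 9.16 in the same order of groups, with overlap in both lists. The mean level of 7 fibroblast markers, 3 of them above the limit, was 5.49 to 5.90 on FoxD3-VP16 arrays, 5.93 to 6.13 on FoxD3 arrays and 5.41 to 5.71 on empty vector arrays, so all FoxD3 arrays were above all others. Those 3 went different ways between empty vector and FoxD3. Col1a1 went from 5.12 to 7.80 and Pdgfra from 5.99 to 7.20, but Col1a2 from 7.79 to 7.07. The part of these marker shifts in the results below was not tested. The arrays of number 1 stood apart, with medians of the deposited values of 6.74 to 6.94 before normalization, against 6.15 to 6.28 on the other 9 arrays. Arrays of the same number deviated together, so a fit with the number as a block is given beside a result wherever it changes a call. Deviations were shared between numbers 3 and 4 of different groups as well, with correlations of 0.37 to 0.54 against 0.37 to 0.67 for the same number. The labels do not say whether the numbers are separate cultures, and the spread that the p-values rest on may be technical. In these sorted but bulk samples, fewer cells of a type and less RNA per cell cannot be told apart.

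Among the 40 tested members, 5 (Efna1, Efnb2, Plxna4, Sema3f and Sema7a) passed the brightness limit only through their FoxD3 arrays, since the average over both other groups together was below it. Taken alone, Efna1 with FoxD3-VP16, at 6.48, and Efnb2 with empty vector, at 6.18, were above it. A high FoxD3 level was thus a condition of these 5 being tested, and their counts below are no support for one. In FoxD3 against empty vector cells, 8 of the 40 tested members differed, against a background of 4.01% of all tested genes. Those that rose were the ligands Sema3b, Efna1 and Efna3 and the receptors Plxnb2, Epha2 and Unc5b (6 genes, background 2.89%), and those that fell were the receptors Robo1 and Unc5c (2 genes, background 1.12%). The median difference of the 40 members was 0.46, while that of all tested genes was -0.00. Of the 40 differences 28 were positive, against 5396 of all 10916. Both member values include the 5 genes that passed only through their FoxD3 arrays, all of them positive, and are no support for a rise of the members. With the number as a block, 14 members rose (background 11.8%) and 6 fell (background 9.21%), and 21.0% of all genes were called in either direction. The groups did not overlap for 11 members (background 11.5%), and 18 had an unadjusted p under 0.05 (background 16.1%). Leaving out each array in turn left between 3 and 8 members called. Of all genes, 197 to 555 were then called, against 438 with all 12 arrays. The member count was 3 without FoxD3 array 3, FoxD3 array 4 or empty vector array 3 (215, 197 and 241 of all genes). It was 4 without FoxD3 array 1 or 2 (309 and 348 of all genes). Without FoxD3-VP16 array 2 or 3 or empty vector array 2 or 4 it was 5 (380, 341, 503 and 261 of all genes).

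In FoxD3-VP16 against FoxD3 cells, 9 members differed, against a background of 9.57%. The ligands Sema3c and Slit2 and the receptors Epha3, Robo1 and Unc5c rose (5 genes, background 4.44%), and the ligands Sema3b and Efna3 and the receptors Epha2 and Unc5b fell (4 genes, background 5.13%). The median difference was -0.27 over the members and -0.03 over all tested genes. The member median again includes the 5 genes that passed only through their FoxD3 arrays, all of them negative here. With the block, 7 members rose (background 14.6%) and 15 fell (background 17.5%), and 32.0% of all genes were called. The 15 include Sema3f and Efnb2, whose entry through the FoxD3 arrays favours a fall. For 16 members the groups did not overlap (background 18.2%), and 20 had an unadjusted p under 0.05 (background 23.0%). Both comparisons contain the same FoxD3 arrays, so a gene's values in one are not independent of its values in the other. Each of the 17 calls in these comparisons had its direction within all 4 array numbers.

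**Figure D1:**
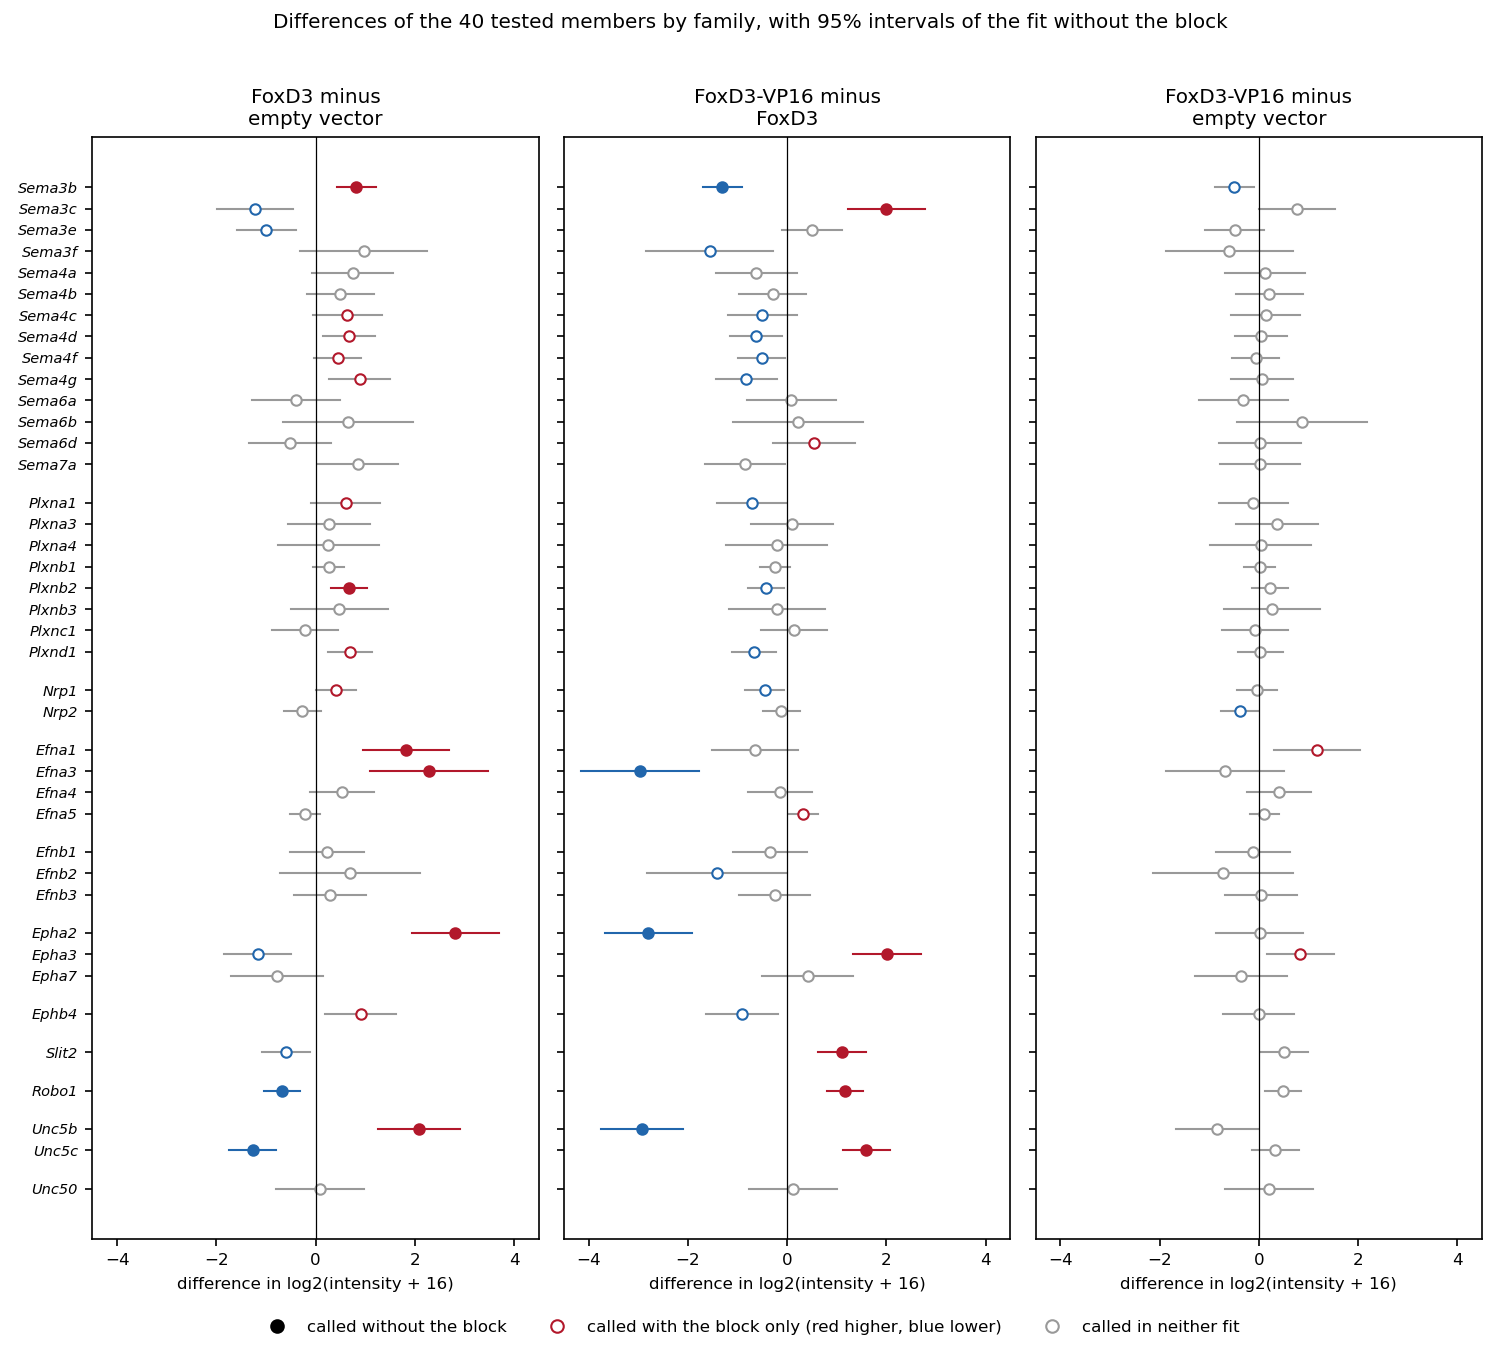
Differences in log2(intensity + 16) of the 40 tested members, in rows by family, for FoxD3 minus empty vector, FoxD3-VP16 minus FoxD3 and FoxD3-VP16 minus empty vector, with 95% intervals of the fit without the block. Filled points are called without the block (8, 9 and 0 members), coloured open points only with it, and grey open points in neither fit; red is higher and blue lower. Epha2, Efna3 and Unc5b lie farthest right in the first panel, at 2.82, 2.29 and 2.08.

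Among the semaphorins, 14 of 20 genes were tested, and the 2 that differed, Sema3b and Sema3c, are both secreted class 3 ligands with neuropilin coreceptors. Sema3b, a semaphorin known as a candidate tumour suppressor, had log2 levels of 9.12, 9.44, 9.01 and 9.03 with FoxD3-VP16, 10.54, 10.61, 10.42 and 10.28 with FoxD3, and 9.39, 10.13, 9.58 and 9.46 with empty vector. The FoxD3 arrays lay above all others, and the other groups overlapped. Sema3b rose in FoxD3 against empty vector cells by 0.82 ± 0.18 (SE, n = 4 arrays each; limma, adjusted p = 0.0232). It fell by 1.31 ± 0.18 in FoxD3-VP16 against FoxD3 cells (limma, adjusted p = 0.000644), and its other probe sets differed by -1.12 and -1.83. The first of these calls was lost without any 1 of FoxD3 arrays 1 to 4 or empty vector arrays 1, 3 and 4, at adjusted p of 0.0508 to 0.0805, and without the number 1 arrays of all groups, at 0.0560. With the block its adjusted p was 0.000406.

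Sema3c, a class 3 semaphorin needed for heart outflow development and neural crest migration, measured 7.98, 8.08, 8.18 and 8.42 with FoxD3-VP16, 5.60, 5.63, 6.67 and 6.76 with FoxD3, and 6.48, 7.53, 7.76 and 7.80 with empty vector. The FoxD3-VP16 arrays lay above all others, FoxD3 arrays 1 and 2 lay below all others, and FoxD3 arrays 3 and 4 were above empty vector array 1. Sema3c rose in FoxD3-VP16 against FoxD3 cells by 2.00 ± 0.36, a 4.00-fold difference (limma, adjusted p = 0.00331). Its second probe set, below the brightness limit, differed by 0.28, and with the mean of both the adjusted p was 0.0723. In FoxD3 against empty vector cells the difference was -1.23 ± 0.36, with an adjusted p of 0.0787 without the block and 0.00389 with it.

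Of the remaining semaphorins, 7 passed only with the number as a block. In FoxD3 against empty vector cells the class 4 members Sema4c, Sema4d, Sema4f and Sema4g, which are membrane-bound, differed by 0.64, 0.68, 0.45 and 0.89, with block adjusted p of 0.0128, 0.0424, 0.0274 and 0.0121. FoxD3-VP16 against FoxD3 differences of the same genes were -0.50, -0.63, -0.51 and -0.82, with block adjusted p of 0.0291, 0.0427, 0.00912 and 0.0117. Without the block none of these 8 values passed, and their adjusted p lay between 0.0949 and 0.405. For Sema4d, the immune semaphorin that binds Plxnb1, the levels were 7.62, 7.53, 7.76 and 7.94 with FoxD3-VP16, 8.69, 8.25, 8.04 and 8.37 with FoxD3, and 8.08, 8.01, 7.31 and 7.24 with empty vector. Its FoxD3 arrays lay above all FoxD3-VP16 arrays and overlapped the empty vector arrays, of which numbers 1 and 2 were the higher.

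Sema3e, the ligand of Plxnd1, differed by -0.99 ± 0.28 in FoxD3 against empty vector cells, with adjusted p of 0.0674 without the block and 0.0211 with it, and the groups did not overlap. Its other probe sets, all below the limit, differed by -1.33, 0.08 and 0.30, and the mean of all 4 by -0.48 (adjusted p = 0.447 without the block, 0.308 with it). Sema3f, a class 3 ligand that binds Nrp2, differed by -1.57 ± 0.59 in FoxD3-VP16 against FoxD3 cells (block adjusted p = 0.0292, otherwise 0.124), a call that its entry through the FoxD3 arrays favours. Its levels were 5.08, 5.43, 5.41 and 5.45 with FoxD3-VP16, 7.38, 5.83, 7.06 and 7.36 with FoxD3, and 8.02, 5.06, 5.40 and 5.27 with empty vector. A single empty vector array, number 1, was above every FoxD3 array while the other 3 were below them all. Sema6d, a transmembrane class 6 member, differed by 0.54 in FoxD3-VP16 against FoxD3 cells with the block (adjusted p = 0.0391, otherwise 0.461), but its second probe set differed by -0.30 and the mean of all its probe sets by -0.08. Sema4a, Sema4b, Sema6a, Sema6b and Sema7a, with mean levels of 6.24 to 8.26, passed in no comparison with or without the block. Sema3a, Sema3d, Sema3g, Sema5a, Sema5b and Sema6c were too dim, with mean levels of 4.84 to 5.84.

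Sema3g stood out among the dim genes when no brightness filter was used, a value singled out after it was seen. It measured 5.18, 4.36, 4.52 and 5.86 with FoxD3-VP16, 6.42, 6.90, 6.72 and 7.17 with FoxD3, and 4.30, 5.16, 4.44 and 4.26 with empty vector. All FoxD3 arrays were above the limit and all others below it. In the unfiltered fit over 18193 genes the differences were 2.26 ± 0.38 for FoxD3 minus empty vector (limma, adjusted p = 0.00493) and -1.82 for FoxD3-VP16 minus FoxD3 (adjusted p = 0.0110). It was the only 1 of the 30 dim members called there. Epha1 came next, at 1.35 (adjusted p = 0.0520) and -1.21 (adjusted p = 0.0501).

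Plexins are the transmembrane receptors of semaphorins, and 8 of 9 were tested, Plxna2 being too dim at 5.31. Plxnb2, a receptor of class 4 semaphorins, had levels of 11.32, 11.06, 11.16 and 11.53 with FoxD3-VP16, 11.93, 11.51, 11.70 and 11.66 with FoxD3, and 11.39, 11.08, 10.68 and 10.99 with empty vector. The FoxD3 arrays lay above all empty vector arrays and overlapped the FoxD3-VP16 arrays at a single array, number 4. Plxnb2 rose in FoxD3 against empty vector cells by 0.67 ± 0.17, a 1.59-fold difference (limma, adjusted p = 0.0419; 0.00138 with the block). The call without the block was lost without any 1 of FoxD3-VP16 arrays 2 to 4, FoxD3 arrays 1 to 4 or empty vector arrays 2 to 4, at adjusted p of 0.0522 to 0.126. Against FoxD3, the FoxD3-VP16 difference was -0.44, with an adjusted p of 0.130 without the block and 0.0111 with it.

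Plxna1 and Plxnd1 passed with the block only. Plxna1, which signals for class 3 semaphorins bound to neuropilins, differed by 0.61 in FoxD3 against empty vector cells (adjusted p = 0.391 without the block, 0.00195 with it) and by -0.72 in FoxD3-VP16 against FoxD3 cells (0.199 and 0.000320). The number 1 array of Plxna1 was the highest of each group, at 11.20 with FoxD3-VP16, 11.72 with FoxD3 and 11.31 with empty vector, and the remaining arrays lay at 10.00 to 10.30, 10.71 to 11.13 and 10.03 to 10.43 in the same order of groups. Plxnd1, the Sema3e receptor of vessels and nerves, measured 10.55, 10.32, 11.00 and 10.89 with FoxD3-VP16, 10.99, 11.01, 11.79 and 11.64 with FoxD3, and 10.71, 10.56, 10.75 and 10.62 with empty vector. Every FoxD3 array of Plxnd1 lay above all empty vector arrays and above the FoxD3-VP16 array of its own number. The differences were 0.70 ± 0.21 (adjusted p = 0.0837 without the block, 0.00174 with it) and -0.67 ± 0.21 (0.0609 and 0.00126). The Plxna1 and Plxnd1 calls with the block held when each array was left out in turn. Plxna3, Plxna4, Plxnb1, Plxnb3 and Plxnc1 passed in no comparison, with FoxD3 minus empty vector differences of -0.21 to 0.48.

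Of the neuropilins, the coreceptors of class 3 semaphorins and of VEGF, neither passed without the block. Nrp1 differed by 0.42 in FoxD3 against empty vector cells (adjusted p = 0.286, block 0.0476) and by -0.46 in FoxD3-VP16 against FoxD3 cells (adjusted p = 0.154, block 0.0227). Its other 3 probe sets were also above the limit and gave -0.16 to 0.25 for the first difference and 0.01 to 0.29 for the second, so the second had the opposite sign. Nrp2 differed by -0.39 in FoxD3-VP16 against empty vector cells (adjusted p = 0.471, block 0.0218), and all its other probe sets differed in the same direction, by -0.25 to -0.36.

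The A-class ephrins are lipid-anchored ligands of the EphA receptors, and 4 of 5 were tested, Efna2 being too dim at 5.63. Efna1 and Efna3 rose in FoxD3 against empty vector cells, and Efna4 and Efna5 did not pass. Efna1 had levels of 7.27, 6.03, 5.84 and 6.77 with FoxD3-VP16, 7.34, 6.98, 7.23 and 6.97 with FoxD3, and 5.37, 5.54, 4.35 and 5.95 with empty vector. All empty vector arrays were below the brightness limit of 5.98 and all FoxD3 arrays above it, while the FoxD3-VP16 arrays spread across both ranges. The rise was 1.83 ± 0.40, a 3.55-fold difference (limma, adjusted p = 0.0222), which was lost without FoxD3 array 1, 3 or 4 or empty vector array 3, at adjusted p of 0.0548 to 0.0731. With no brightness filter its adjusted p was 0.0327. A second Efna1 probe set, at a mean of 4.60, differed by 0.02. With FoxD3-VP16 against empty vector the Efna1 difference was 1.18 ± 0.40 (adjusted p = 0.291, block 0.0458).

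Efna3 measured 7.64, 6.15, 5.86 and 4.60 with FoxD3-VP16, 9.94, 8.54, 8.73 and 8.92 with FoxD3, and 7.64, 6.21, 6.54 and 6.60 with empty vector. The FoxD3 arrays lay above all others, the number 1 array was the highest of every group, and FoxD3-VP16 array 4 was the lowest of all. Efna3 rose by 2.29 ± 0.55, or 4.88-fold, in FoxD3 against empty vector cells (limma, adjusted p = 0.0345; 0.000280 with the block). It fell by 2.97 ± 0.55, a 7.84-fold difference, in FoxD3-VP16 against FoxD3 cells (limma, adjusted p = 0.00418). The second probe set of Efna3 differed by 3.53 and -2.63. Without the block the rise was lost without FoxD3-VP16 array 2 or 3, any FoxD3 array, or empty vector arrays 2 to 4, at adjusted p of 0.0503 to 0.0981. Efna1, Efna3 and Efna4 are neighbours on chromosome 3 with no other coding gene between them (RefSeq, GRCm38.p6). Efna4, the third of this row, differed by 0.54 ± 0.30 (adjusted p = 0.417) and -0.14 ± 0.30 (adjusted p = 0.859).

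Efna5, a ligand of several EphA receptors, differed by 0.33 in FoxD3-VP16 against FoxD3 cells with the block only (adjusted p = 0.0413, otherwise 0.167). All 3 B-class ephrins, transmembrane ligands of EphB receptors, were tested and none passed without the block. Efnb2, best known as the arterial ephrin, had levels of 5.03, 4.57, 6.14 and 6.11 with FoxD3-VP16, 7.18, 6.52, 7.05 and 6.75 with FoxD3, and 4.55, 5.11, 7.71 and 7.37 with empty vector. Every FoxD3 array was above every FoxD3-VP16 array, whereas the empty vector arrays split into a low pair, numbers 1 and 2, and a high pair, numbers 3 and 4. The FoxD3-VP16 minus FoxD3 difference was -1.41 ± 0.65 (adjusted p = 0.217, block 0.0356), a call that the entry of Efnb2 through its FoxD3 arrays favours. With no brightness filter and no block, limma's adjusted p was 0.290. The other 3 Efnb2 probe sets, all below the limit, gave -0.12 to 0.32. Efnb1 and Efnb3 differed by 0.24 and 0.29 in FoxD3 against empty vector cells (adjusted p = 0.838 and 0.768).

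EphA receptors are the tyrosine kinases that read A-class ephrins, and 3 of 9 were tested. Epha1, Epha10, Epha4, Epha5, Epha6 and Epha8 were too dim, at 4.87 to 5.73. Epha2 and Epha3 differed, in opposite directions, and Epha7, with a mean level of 6.66, did not pass. Epha2, a receptor often abundant in melanoma and carcinoma, had levels of 7.20, 5.93, 6.76 and 6.73 with FoxD3-VP16, 10.06, 8.32, 9.69 and 9.77 with FoxD3, and 6.43, 5.98, 7.22 and 6.91 with empty vector. Every FoxD3 array was above every array of the other groups, whose ranges overlapped almost completely, and array 2 was the lowest of each group. Epha2 rose by 2.82 ± 0.40, a 7.07-fold difference, in FoxD3 against empty vector cells (limma, adjusted p = 0.00180). In FoxD3-VP16 against FoxD3 cells it fell by 2.80 ± 0.40 (limma, adjusted p = 0.000836). FoxD3-VP16 and empty vector cells differed by 0.02, with a 95% interval of -0.86 to 0.89.

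Epha3, a receptor first cloned from human leukaemia cells and common in melanoma lines, measured 13.07, 12.97, 12.81 and 12.92 with FoxD3-VP16, 11.45, 11.42, 10.45 and 10.42 with FoxD3, and 12.75, 12.60, 11.62 and 11.45 with empty vector. FoxD3-VP16 arrays lay above all others, and in both remaining groups numbers 1 and 2 were above numbers 3 and 4, so that the groups overlapped although each FoxD3 array was below the empty vector array of its number. Epha3 rose in FoxD3-VP16 against FoxD3 cells by 2.01 ± 0.32, a 4.02-fold difference (limma, adjusted p = 0.00153), and its other 3 probe sets differed by 1.54 to 2.42. In FoxD3 against empty vector cells the difference was -1.17 ± 0.32 (adjusted p = 0.0592, block 0.000280), and -0.59 to -1.52 at the other probe sets. In FoxD3-VP16 against empty vector cells it was 0.84 ± 0.32 (adjusted p = 0.348, block 0.00695), and 0.91 to 1.01 at the others.

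Of the EphB receptors, which read B-class ephrins, only Ephb4 was tested. Ephb1, Ephb3 and Ephb6 were too dim, at 4.82 to 5.59. Ephb4, the venous receptor of Efnb2, had levels of 6.38, 7.34, 7.17 and 7.47 with FoxD3-VP16, 8.24, 7.69, 8.01 and 8.07 with FoxD3, and 6.20, 7.72, 7.18 and 7.27 with empty vector. The FoxD3 arrays were above all FoxD3-VP16 arrays and above 3 of the 4 empty vector arrays, and number 1 was the lowest array of the FoxD3-VP16 and empty vector groups. The differences were 0.91 ± 0.33 for FoxD3 minus empty vector (adjusted p = 0.176, block 0.0356) and -0.91 ± 0.33 for FoxD3-VP16 minus FoxD3 (adjusted p = 0.112, block 0.0250).

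**Figure D2:**
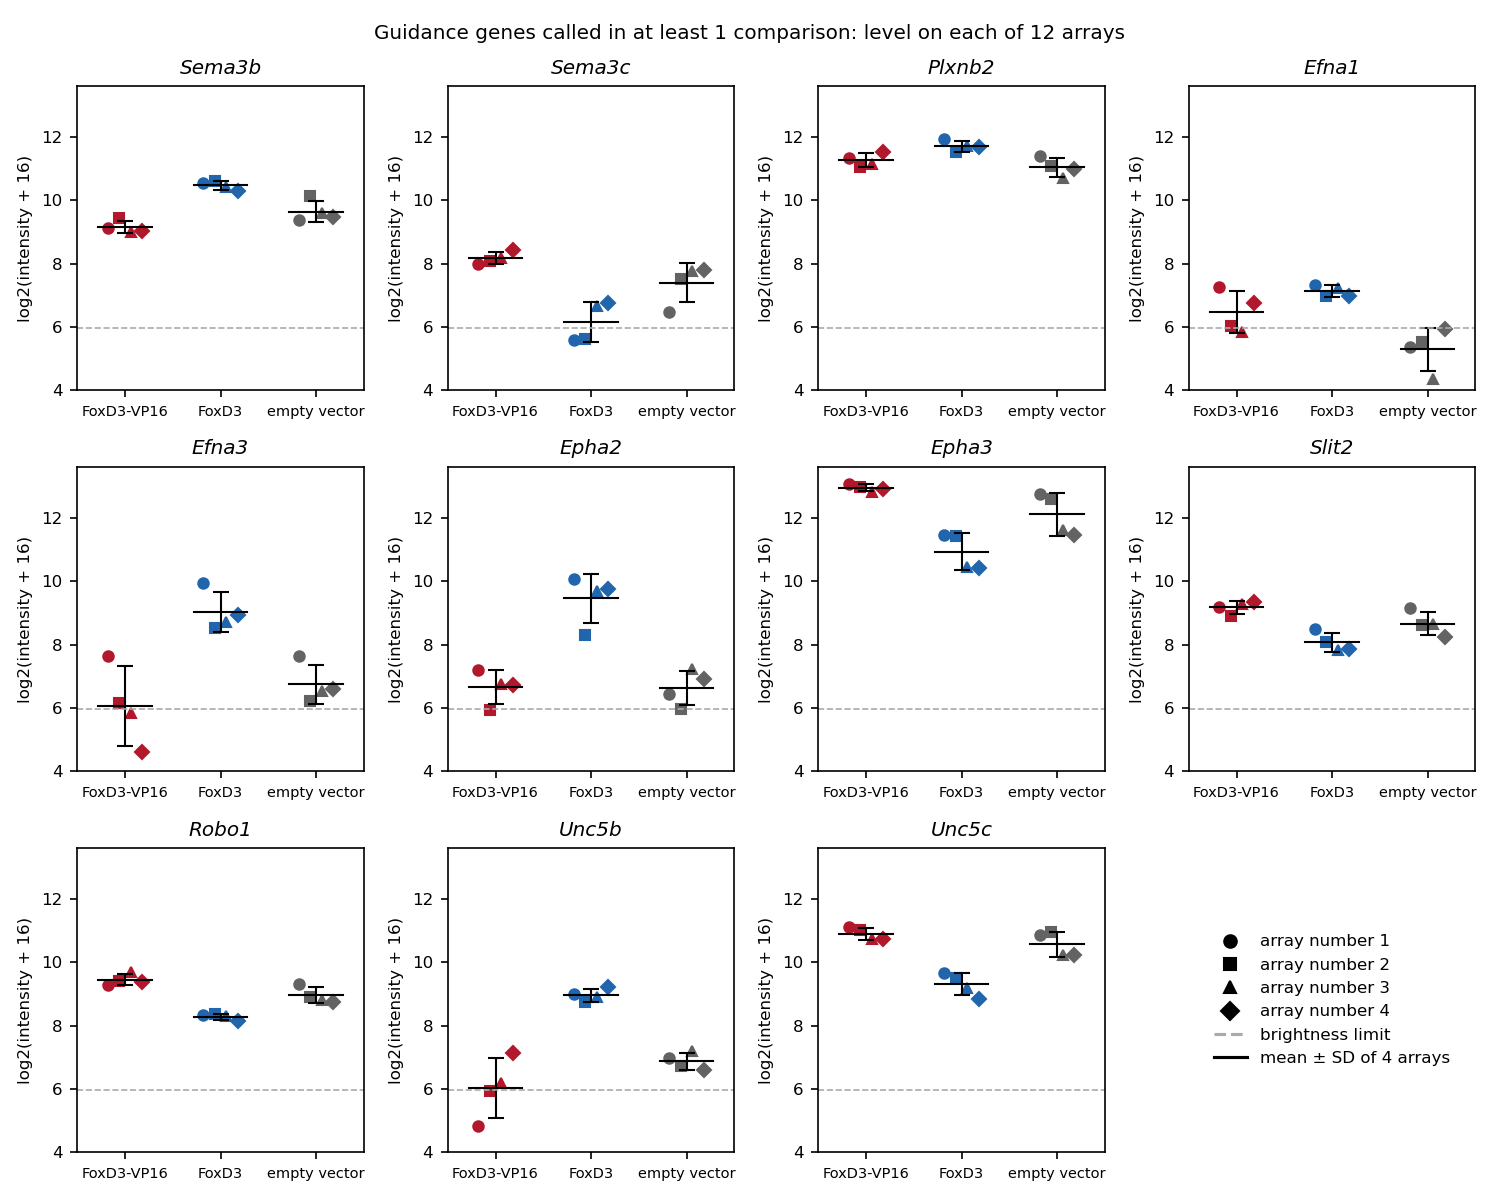
Log2(intensity + 16) on each of the 12 arrays for the 11 members called in at least 1 comparison, with FoxD3-VP16, FoxD3 and empty vector from left to right, symbols for the array number, bars for the mean ± SD of 4 arrays and a dashed line at the brightness limit of 5.98. The FoxD3 arrays lie above all others for Sema3b, Efna3, Epha2 and Unc5b, and below all others for Robo1 and Unc5c.

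Slit2 and its receptor Robo1 were the only tested members of their families. Slit1 and Slit3 were too dim at 5.06 and 4.40, and so were Robo2, Robo3 and Robo4, at 4.70 to 5.59. Slit2, a secreted repellent, measured 9.18, 8.90, 9.28 and 9.34 with FoxD3-VP16, 8.49, 8.09, 7.84 and 7.85 with FoxD3, and 9.14, 8.61, 8.65 and 8.25 with empty vector. FoxD3-VP16 and FoxD3 arrays did not overlap, and the empty vector arrays reached into both ranges. Slit2 rose by 1.11 ± 0.22, a 2.15-fold difference, in FoxD3-VP16 against FoxD3 cells (limma, adjusted p = 0.00663). A second Slit2 probe set just above the limit differed by 0.18 and the last, below it, by -0.28, and with the mean of the 3 the adjusted p was 0.473. The FoxD3 minus empty vector difference of -0.60 ± 0.22 passed with the block only (adjusted p = 0.180 without it, 0.0306 with it).

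Robo1, the Slit receptor that holds cells and axons off Slit sources, measured 9.29, 9.42, 9.69 and 9.36 with FoxD3-VP16, 8.32, 8.35, 8.30 and 8.13 with FoxD3, and 9.32, 8.91, 8.82 and 8.76 with empty vector. The FoxD3 arrays were the lowest of all, with no overlap. Robo1 fell by 0.68 ± 0.17 in FoxD3 against empty vector cells (limma, adjusted p = 0.0407; 0.00688 with the block). The call without the block was lost without any 1 array except FoxD3-VP16 array 1, at adjusted p of 0.0537 to 0.141, and with the mean of its 3 probe sets, at 0.314. It rose by 1.16 ± 0.17, a 2.24-fold difference, in FoxD3-VP16 against FoxD3 cells (limma, adjusted p = 0.000855). Its other probe sets, both below the limit, differed by 0.87 and -0.03 there, and with the mean of the 3 the adjusted p was 0.109.

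No netrin was tested, since Ntn1, Ntn3, Ntn4 and Ntn5 had mean levels of 5.01 to 5.58, below the limit. The netrin receptors Unc5b and Unc5c were tested and differed in opposite directions, while Unc5a and Unc5d were too dim at 5.40 and 4.81. Unc5b, a dependence receptor of vessels and tumour cells and a known p53 target, had levels of 4.84, 5.95, 6.19 and 7.15 with FoxD3-VP16, 9.01, 8.73, 8.89 and 9.20 with FoxD3, and 6.97, 6.72, 7.21 and 6.59 with empty vector. All FoxD3 arrays lay well above all others, and the FoxD3-VP16 arrays spread over a wider range than either other group. Unc5b rose by 2.08 ± 0.38, or 4.24-fold, in FoxD3 against empty vector cells (limma, adjusted p = 0.00818). In FoxD3-VP16 against FoxD3 cells it fell by 2.93 ± 0.38, a 7.60-fold difference (limma, adjusted p = 0.000450). Its second probe set differed by 1.54 and -1.08.

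Unc5c, a receptor for the repellent action of netrin on axons, measured 11.11, 11.01, 10.74 and 10.72 with FoxD3-VP16, 9.65, 9.51, 9.20 and 8.85 with FoxD3, and 10.86, 10.94, 10.23 and 10.23 with empty vector. Its FoxD3 arrays were the lowest, without overlap, and numbers 1 and 2 were the higher arrays of every group. Unc5c fell by 1.26 ± 0.22, a 2.40-fold difference, in FoxD3 against empty vector cells (limma, adjusted p = 0.00551). It rose by 1.59 ± 0.22, or 3.02-fold, in FoxD3-VP16 against FoxD3 cells (limma, adjusted p = 0.000638). The second Unc5c probe set gave -1.25 and 1.58.

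**Figure D3:**
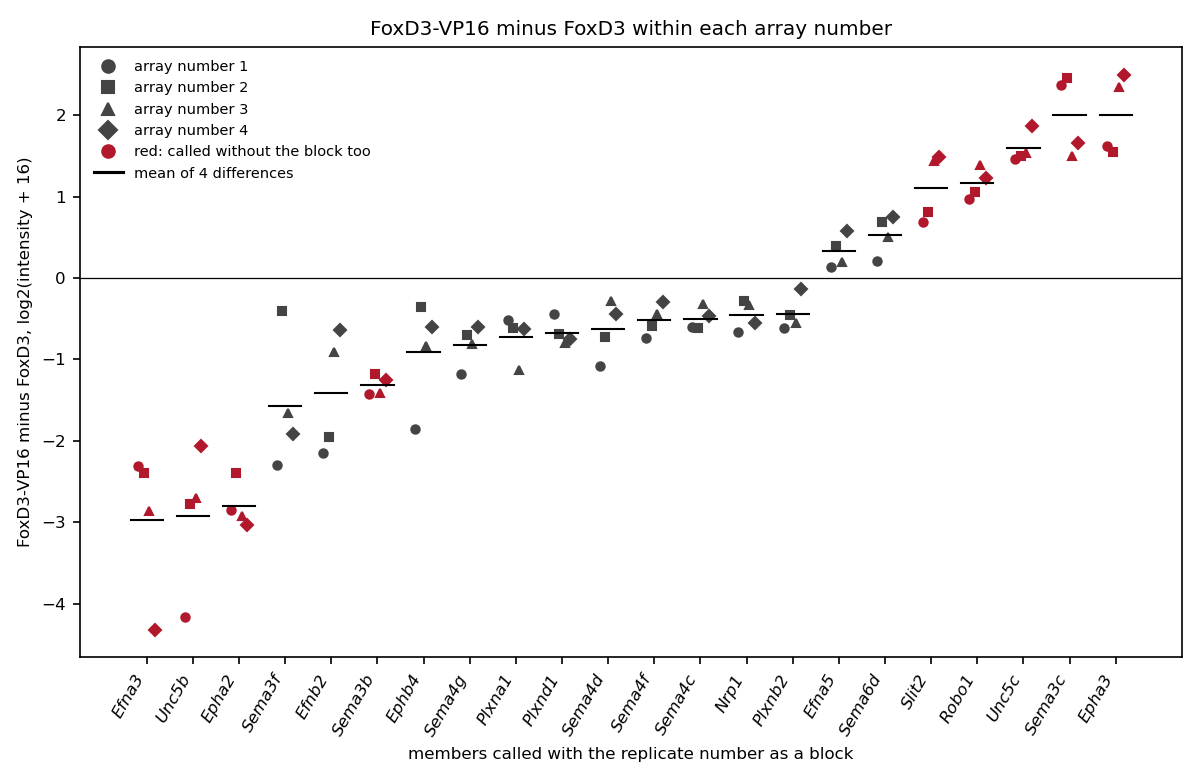
FoxD3-VP16 minus FoxD3 within each array number, in log2(intensity + 16), for the 22 members called with the number as a block, ordered by their mean difference (bar); red symbols mark the 9 members also called without the block. All 4 differences of each gene have the same sign, and those of Efna3 and Unc5b are the most scattered. Sema3f and Efnb2 passed the brightness limit only through their FoxD3 arrays.

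Promoter sequence was looked at for the genes that moved, because FoxD3 and FoxD3-VP16 share the forkhead domain that binds DNA. RefSeq promoters (GRCm38.p6) were found for 60 of the 70 members and for 10 of the 11 called ones, which had 13 promoters in all. Sema3b had none in the table used here. The 250 bases before the start of transcription are printed for the opposed pair Unc5b and Unc5c, for Epha2, the gene with the highest rise, and for Robo1. They lie at chr10:60831582-60831831 on the minus strand (Unc5b), chr3:141465314-141465563 on the plus strand (Unc5c), chr4:141300971-141301220 on the plus strand (Epha2) and chr16:72662899-72663148 on the plus strand (Robo1). Capitals mark the only forkhead-type core found in them.
Unc5b: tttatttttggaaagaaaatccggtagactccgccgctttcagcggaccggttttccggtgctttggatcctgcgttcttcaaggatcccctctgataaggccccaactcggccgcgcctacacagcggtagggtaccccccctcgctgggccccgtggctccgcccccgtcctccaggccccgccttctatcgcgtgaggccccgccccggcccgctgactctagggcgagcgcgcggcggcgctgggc
Unc5c: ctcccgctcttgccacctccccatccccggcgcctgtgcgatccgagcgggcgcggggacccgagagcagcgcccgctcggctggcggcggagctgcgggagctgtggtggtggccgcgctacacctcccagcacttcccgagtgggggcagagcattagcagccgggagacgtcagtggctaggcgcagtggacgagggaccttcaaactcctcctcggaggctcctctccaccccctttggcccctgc
Epha2: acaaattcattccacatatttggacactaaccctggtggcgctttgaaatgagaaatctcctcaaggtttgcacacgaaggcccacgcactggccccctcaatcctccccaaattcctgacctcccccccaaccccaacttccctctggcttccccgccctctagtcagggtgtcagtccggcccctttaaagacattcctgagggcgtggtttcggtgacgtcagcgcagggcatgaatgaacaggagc
Robo1: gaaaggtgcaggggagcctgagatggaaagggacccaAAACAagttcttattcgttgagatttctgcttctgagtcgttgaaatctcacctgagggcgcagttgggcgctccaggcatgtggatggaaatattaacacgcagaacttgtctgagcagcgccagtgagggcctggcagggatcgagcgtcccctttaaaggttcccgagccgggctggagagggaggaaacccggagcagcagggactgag

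The search covered both strands of the 300 bases that run from 250 before to 50 after the start. The forkhead motif TGTTTAC was in 0 of the 13 promoters of called members and in 0 of the 76 of all members, against 3.65% of all 32851 promoters. The motif TGTTTGC was in 0 and 2 of these, against 5.07%. TTTGTTT, a core of the FOXD3 site, was in 0 and 0, against 9.82%. The shorter core TGTTT, which is part of each of these motifs and was added after they had been counted, was in 2 of the 13 promoters of called members and in 27.6% of the members' promoters, against 50.5% of all promoters. In the 250 upstream bases alone it was in 1 of the 13, that of Robo1, where it stands as AAACA on the printed strand, and in 18.4% of the members' promoters, against 46.4% of all. The called members' promoters also had a higher GC content than all promoters, with a median of 64.8% against 52.4%, and a higher median number of CpG sites, 19 against 6. No such medians were taken over all members' promoters, so whether the called members differ from the other members in this is not known. A motif match is a description of letters and not a binding site, and the sequence window says nothing about distant elements.

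In FoxD3-VP16 against empty vector cells, no member passed limma's adjusted p without the block (0 of 40, background 0.595%, of which 0.522% higher and 0.0733% lower), 8 had an unadjusted p under 0.05 (background 10.3%), and 4 passed with the block (background 11.1%). With the block Efna1 and Epha3 were higher, by 1.18 and 0.84 (background 5.73%), and Sema3b and Nrp2 were lower, at -0.49 and -0.39 (background 5.41%). The groups did not overlap for 4 members (background 5.71%). The 40 differences had a median of 0.04, ran from -0.84 to 1.18, and 24 of the 40 had a 95% interval within 1 log2 unit on either side of 0. The intervals of the others reached past 1 unit. Unc5b, for instance, differed by -0.84 with an interval of -1.67 to -0.01 (adjusted p = 0.474), and Efna3 by -0.69 with an interval of -1.87 to 0.50 (adjusted p = 0.788). The second probe sets of Unc5b and Efna3, both above the limit, had the opposite sign, at 0.46 and 0.90. Without the number 1 arrays of all groups, Robo1 was called, at 0.67 with an adjusted p of 0.0441.

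**Figure D4:**
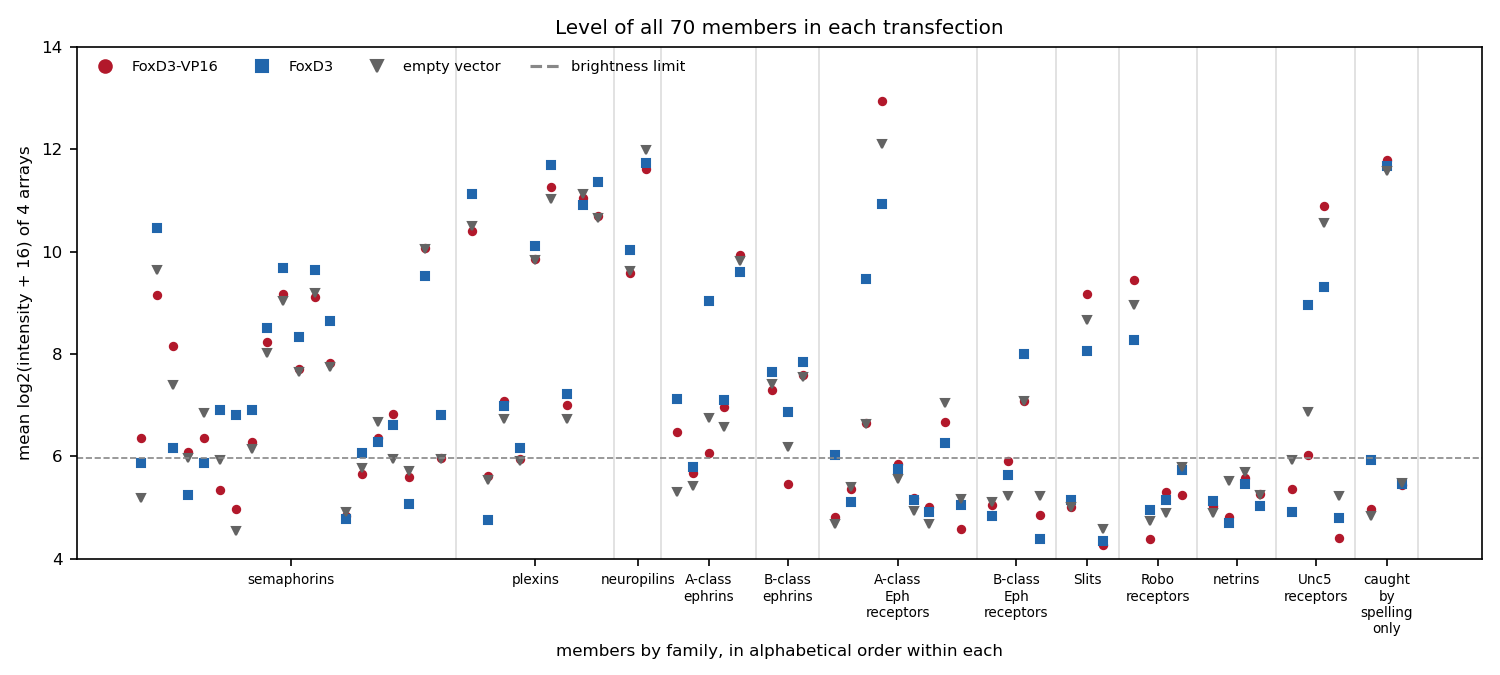
Mean log2(intensity + 16) of the 4 arrays of each transfection for all 70 members, by family and in alphabetical order within it, with FoxD3-VP16 as circles, FoxD3 as squares and empty vector as triangles. Points below the dashed limit of 5.98 are mostly those of the 30 members too dim to be tested, among them all 4 netrins. Levels are comparable between groups of 1 member, not between members.

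The 3 genes caught by spelling alone did not change the counts of calls. Unc50, a membrane protein of the Golgi, was bright enough to be tested and differed by 0.08, 0.12 and 0.21 in FoxD3 against empty vector, FoxD3-VP16 against FoxD3 and FoxD3-VP16 against empty vector cells, with adjusted p of 0.964, 0.911 and 0.952. Unc5cl and Plxna4os1 were too dim, at 5.46 and 5.25.

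Other genes of the guidance pathways were read from lists drawn up by function. Of 30 other receptors and coreceptors, 18 were tested, and 3 rose and 2 fell in FoxD3 against empty vector cells (background 2.89% and 1.12%), or 5 and 6 with the block (background 11.8% and 9.21%). The heparan sulphate proteoglycans Sdc3 and Gpc1, coreceptors of several guidance cues, rose by 1.25 and 1.11 (limma, adjusted p = 0.0419 and 0.00105), and Cd72, a lymphocyte receptor of Sema4d, by 1.18 (adjusted p = 0.0456). Flrt3, a ligand of Unc5 receptors and partner of Robo1, fell by 1.11 (adjusted p = 0.0162), and the adhesion molecule Nrcam fell by 0.60 (adjusted p = 0.0305). In FoxD3-VP16 against FoxD3 cells 3 of the 18 rose and 3 fell (background 4.44% and 5.13%), or 5 and 5 with the block (background 14.6% and 17.5%). Those called without it included Flrt3 at 1.92 (adjusted p = 0.000253), the receptor phosphatase Ptprd at 1.48 (0.0462), Sdc3 at -1.32 (0.0184), Gpc1 at -1.11 (0.000466) and Cd72 at -1.04 (0.0472).

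Of 18 other guidance ligands, 5 were tested and 1 passed, the repulsive guidance molecule Rgma, which rose by 1.14 in FoxD3-VP16 against FoxD3 cells (limma, adjusted p = 0.0171; background 4.44%). With the block 1 of the 5 also fell in FoxD3 against empty vector cells (background 9.21%). Of 76 intracellular effectors, 69 were on the array and 56 were tested. In FoxD3 against empty vector cells 1 of the 56 rose, Rnd2, a small GTPase of the Rnd family, by 0.74 (limma, adjusted p = 0.0287; background 2.89%), and none fell (background 1.12%), while 7 rose and 6 fell with the block (background 11.8% and 9.21%). In FoxD3-VP16 against FoxD3 cells 7 rose and 2 fell (background 4.44% and 5.13%), or 12 and 12 with the block (background 14.6% and 17.5%). The exchange factor Arhgef11, which couples plexin-B receptors to RhoA, rose by 1.06 (adjusted p = 0.000944), and the tyrosine kinase Abl1, whose fly counterpart acts with Robo receptors, by 0.89 (adjusted p = 0.00299). In FoxD3-VP16 against empty vector cells the adaptor Nck1, which binds Eph and Robo receptors, rose by 0.68 (limma, adjusted p = 0.0482; background 0.522%), and no other gene of the 3 lists passed without the block. With the block 10 effectors rose and 5 fell there, and 1 of the other receptors rose and 1 fell (background 5.73% and 5.41%).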

How the data were processed

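The deposited values are linear intensities of 45101 probe sets on 12 arrays, made with MAS5 (version: not given in the sources used here) per the submitters' processing notes, while dChip is named in a label. The 2%-trimmed mean of each array is 500.003 to 500.004. No array platform build is given, and promoter coordinates come from RefSeq (GRCm38.p6).

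From these, log2(intensity + 16) was taken and quantile normalized, because array medians spanned 0.79, above a limit of 0.5. Control probe sets (64) were left out; 34945 had 1 symbol, and 932 with several and 9160 not listed entered no test. The probe set with the highest mean stood for its gene, and the lowest 40% of 18193 genes were left out, leaving 10916. The 70 members have 153 probe sets, and all were matched to RefSeq by gene ID.

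Tests of the 3 pairs of groups used limma 3.58.1 under R 4.3.3 (lmFit, eBayes with trend) over all 12 arrays without a block, with Benjamini-Hochberg adjustment over all tested genes. Labels share replicate numbers 1 to 4: deviations from group means of same-numbered arrays correlated at 0.37 to 0.67 in all 12 pairs, those of numbers 3 and 4 at 0.37 to 0.54, and the other 30 pairs at -0.51 to 0.12. The main fit, which gave the SE, intervals and every adjusted p not marked as block, does not use this pairing. Only the block fit takes the numbers as pairs, and it is printed where it changes a call. On data simulated for FoxD3 against empty vector with 10916 genes, 200 of them changed, 9.25%, 42.7% and 84.2% of log2 changes of 0.5, 1 and 2 were recovered, with 4.5 false calls per run on average. The simulated noise was independent between arrays and between genes. It lacked the shared deviations of same-numbered arrays, so these rates need not hold for the real arrays. The number of arrays limits the precision. Alternatives were the block, pseudocounts of 1 and 64, no further normalization, other filters, the mean of all probe sets, array weights, subsets of arrays and each array left out. Figures were drawn with matplotlib 3.10.9.

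Named are all members called with or without the block, the brightest member of each family, and the other tested members by a level, a difference or a range. Dim members are named with the range of their levels. Called genes of the 3 pathway lists are named too, at most 8 per comparison. The members, lists and tests were chosen with earlier results of these data known.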

Additional observations from a re-analysis of the deposited data

Results flagged for a closer look

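Within groups of 4 arrays, 12 of 120 groups of the tested members (10.0%) held an array whose gap to its nearest neighbour took up more of the group's range than Dixon's 95% critical value allows; chance flags about 1 in 20 groups. The percentage of flagged groups over all tested genes was not computed, so it is not known whether the members differ from other genes in this. These flagged groups belong to 9 members, and the share given is gap over range. None of the 11 members called without the block was among them. Most of the arrays so marked carried number 1. Sema3f array 1 stood apart with FoxD3-VP16, where it was low at 5.08 (0.892), and with empty vector, where it was high at 8.02 against 5.06 to 5.40 on the others (0.885). Sema6d array 1 was high with FoxD3-VP16, at 10.62 (0.842), and with FoxD3, at 10.41 (0.839). With FoxD3-VP16, array 1 was low for Sema4b at 7.52 (0.854), for Nrp2 at 11.16 (0.830) and for Unc50 at 10.70 (0.967), and high for Plxna3 at 8.23 (0.833). With empty vector, array 1 was high for Efnb1 at 8.38 (0.916). Array 2 was low for Sema6b with FoxD3 at 4.67 (0.843) and with empty vector at 4.66 (0.897), and for Sema7a with FoxD3 at 6.28 (0.971).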

How the results depend on the processing

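Of the 17 calls among members, 12 held whichever array was left out, and 5, all in FoxD3 against empty vector cells, did not (Sema3b, Plxnb2, Efna1, Efna3 and Robo1). With the replicate block, which pairs arrays of the same number, there were 46 calls, 29 of them not made without it, and none of the 17 was lost. Of those 29, 8 held with the block when each array was left out in turn, 21 did not, and 6 were lost with the block without the number 1 arrays, where Sema3f was not tested. The members called in FoxD3 against empty vector, 8 as reported, were 20 with the block, 4 with the lowest 60% of genes left out, 28 with array weights and 5 with only both groups fitted. All genes called there, 438 as reported, were 2297, 274, 4193 and 309 under these settings in turn and 870 without the number 1 arrays. In FoxD3-VP16 against FoxD3, the 9 members became 22 with the block, 4 with the lowest 60% left out and 25 with array weights. The 1045 genes became 3498, 801 and 4455 under these settings in turn and 1815 without the number 1 arrays. In FoxD3-VP16 against empty vector, the 0 members became 4 with the block, 13 with array weights and 1 without the number 1 arrays, and the 65 genes became 1217, 3465 and 277, and 20 with only both groups fitted. Leaving out each array in turn gave 3 to 8, 9 to 10 and 0 members for FoxD3 against empty vector, FoxD3-VP16 against FoxD3 and FoxD3-VP16 against empty vector, and 197 to 555, 602 to 1214 and 13 to 82 genes. The Sema6d difference between FoxD3-VP16 and FoxD3 turned to -0.081 when its probe sets were averaged, with and without the block (the block combined with that mean was chosen after seeing the data). The causes of these shifts were not tested. The stricter filter left fewer genes to test, and the subsets held fewer arrays. Dim members cannot be read as absent: 30 of the 70 lay below the limit.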
